A study of Mus musculus with 16 samples.

Results

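The ADAMTS aggrecanases and related proteases described here are 8 genes, *Adamts1*, *Adamts4*, *Adamts5*, *Adamts7*, *Adamts8*, *Adamts9*, *Adamts12* and *Adamts15*, out of 55414 genes in the count files and out of 19 genes of the ADAMTS family. They were chosen by gene symbol, each symbol matched 1 Ensembl gene, and all 8 passed the filter of 10 summed counts in every comparison. RNA-Seq was carried out on chondrocyte-enriched cells from the epiphyses of newborn mice, pooled from males and females. Cells were either from heterozygous *Notch2*tm1.1Ecan mice (*Notch2* mutant), or from wild type littermates (control), and were treated for 6 h with PBS vehicle or with TNFα at 50 ng/ml, with 4 libraries in each of the 4 groups. The *Notch2* allele is carried by every cell of the mutant mice and has a stop codon ahead of the PEST domain, so that a truncated and stable NOTCH2 is made. The labels call the 4 libraries of a group biological replicates and do not say from which animals or cultures they came, so that the p values measure the spread between these libraries. The labels give serum removal for the TNFα groups only, whereas the legend of the study gives it for vehicle as well. If the labels hold, TNFα and serum removal cannot be told apart.

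ADAMTS proteases are secreted zinc metalloproteinases with thrombospondin motifs. They are made as proenzymes, are activated by furin-like convertases and cut the large proteoglycans and glycoproteins of the extracellular matrix. Loss of aggrecan fragments cut by aggrecanases is an early event in osteoarthritic cartilage, ADAMTS5 is the main aggrecanase of mouse cartilage and TIMP3 is the principal tissue inhibitor of these enzymes. NOTCH2 acts in the nucleus through RBPJ, and TNFα acts in large part through NF-κB and AP-1.

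The libraries held between 3439726 counts on genes (*Notch2* mutant TNFα replicate 4) and 44237300 (*Notch2* mutant vehicle replicate 4), with a median of 17062419. Replicate 4 of both control groups stood apart. On the first principal component, which held 78.6% of the variance, control vehicle replicate 4 was at 14.8 and the other vehicle libraries, of both genotypes, at 56.4 to 58.8. Control TNFα replicate 4 was at -40.9, and the other TNFα libraries were at -56.3 to -52.5. The TNFα-induced adhesion gene *Icam1* was at 439 CPM (counts scaled to library size, per 1e6 counts) in control vehicle replicate 4, against 34.4 to 40.4 in the other control vehicle libraries. On the second component (6.86% of the variance), *Notch2* mutant TNFα replicate 4, the library with the fewest counts, was at 33.4 and the other *Notch2* mutant TNFα libraries were at 11.3 to 12.2. Member counts, member changes whose call differed and some other member changes are therefore given with and without both control libraries. List counts are given from all libraries, with those that changed without both control libraries named beside them. Among 5 Notch target genes, 3 rose in *Notch2* mutant cells with vehicle and 1 with TNFα (2 with TNFα without both control libraries). Of 10 TNFα response genes, 9 rose with TNFα in control cells (10 without both control libraries) and 10 of 10 in *Notch2* mutant cells.

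On GRCm39, the 8 genes lie on 6 chromosomes, and they form 2 neighboring pairs. *Adamts15* (ENSMUSG00000033453, chr9:30810451-30833863, minus strand) and *Adamts8* (ENSMUSG00000031994, chr9:30853809-30875134, plus strand) point away from each other, 19.9 kb apart with no annotated gene between them. *Adamts1* (ENSMUSG00000022893, chr16:85590579-85600009) and *Adamts5* (ENSMUSG00000022894, chr16:85653061-85698716) lie on the minus strand 53.1 kb apart, with 2 genes between them and neither coding for protein. The others are *Adamts4* (ENSMUSG00000006403, chr1:171077986-171089841, plus strand), *Adamts7* (ENSMUSG00000032363, chr9:90045062-90090124, plus strand), *Adamts9* (ENSMUSG00000030022, chr6:92749680-92920520, minus strand) and *Adamts12* (ENSMUSG00000047497, chr15:11064876-11349318, plus strand). Values are sums over all exons of a gene, so that isoforms were not separated. The exons of *Adamts9* share 1389 bases with the long noncoding gene *A730049H05Rik*, which had 46 counts over all libraries against 29331 for *Adamts9*. Those of *Adamts8* share 547 bases with the long noncoding gene *Gm29724*, which had 9 counts against 494 for *Adamts8*. Those of *Adamts7* share 122 bases with *Tbc1d2b*.

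The sequences just ahead of the start of 3 members that fell with TNFα are shown, since these were the members with an entry in the RefSeq promoter table. They are the 250 bases before the RefSeq start on GRCm38.p6, read 5′ to 3′ on the strand of the gene, and 3 of the 8 members matched by symbol. The windows are chr16:85803114-85803363 (minus strand) for *Adamts1*, chr6:92943535-92943784 (minus strand) for *Adamts9* and chr15:11064523-11064772 (plus strand) for *Adamts12*. Capitals mark matches of a loose NF-κB pattern, GGG and CC with any 5 bases between them, on either strand.

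*Adamts1*: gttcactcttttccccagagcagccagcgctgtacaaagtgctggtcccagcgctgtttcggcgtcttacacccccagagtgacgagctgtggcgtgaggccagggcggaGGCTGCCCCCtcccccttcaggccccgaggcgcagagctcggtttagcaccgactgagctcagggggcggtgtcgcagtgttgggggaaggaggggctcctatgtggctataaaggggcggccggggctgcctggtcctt

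*Adamts9*: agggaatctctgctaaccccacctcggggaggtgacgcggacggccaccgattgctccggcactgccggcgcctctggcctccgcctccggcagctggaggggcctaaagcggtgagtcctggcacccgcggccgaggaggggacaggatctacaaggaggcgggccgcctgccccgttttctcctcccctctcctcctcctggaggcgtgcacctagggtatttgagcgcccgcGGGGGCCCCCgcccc

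*Adamts12*: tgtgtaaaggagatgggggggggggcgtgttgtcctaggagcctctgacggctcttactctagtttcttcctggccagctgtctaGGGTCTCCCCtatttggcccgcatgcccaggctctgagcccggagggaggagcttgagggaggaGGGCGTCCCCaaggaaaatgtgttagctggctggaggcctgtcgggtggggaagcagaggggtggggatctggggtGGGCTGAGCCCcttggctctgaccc

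The pattern was found at 1 place ahead of *Adamts1*, 1 place ahead of *Adamts9* and 3 places ahead of *Adamts12*, 1 of them a pair of overlapping matches. These letters occur in 45.8% of 32851 RefSeq promoters, counted on either strand in the same 250 bases. G plus C bases make up 65.6% of the *Adamts1* window, 71.2% of the *Adamts9* window and 63.2% of the *Adamts12* window. None of the 3 windows holds the narrower NF-κB pattern of GGG and TTTCC with any 2 bases between them (in 1.41% of all promoters), the RBPJ letters GTGGGAA (5.42%) or their core TGGGAA (21.6%), or the AP-1 letters TGANTCA (6.75%).

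With TNFα, *Adamts4*, *Adamts7*, *Adamts8* and *Adamts15* rose and *Adamts1*, *Adamts5*, *Adamts9* and *Adamts12* fell, in control and in *Notch2* mutant cells alike. All 8 passed an adjusted p of 0.05 in both genotypes (quasi-likelihood test of edgeR, adjusted by Benjamini-Hochberg across all genes tested), where 44.2% of all genes were called in control cells and 44.5% in *Notch2* mutant cells. For rises the share over all genes was 23.3% in control cells and 22.6% in *Notch2* mutant cells, and for falls it was 20.9% and 21.9%. The vehicle and TNFα libraries did not overlap for any of the 8 genes in either genotype, as was the case for 41.8% of all genes in control cells and 40.2% in *Notch2* mutant cells. At a log2 fold change of 1 or more as well, 6 of the 8 were called in each genotype (all but *Adamts5* and *Adamts12*), against 11.8% of all genes in control cells and 13.9% in *Notch2* mutant cells. Without both control replicate 4 libraries, all 8 were still called in control cells, where 47.4% of all genes were. RNA from whole cultures cannot tell fewer cells of a type from less RNA per cell.

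**Figure D1:**
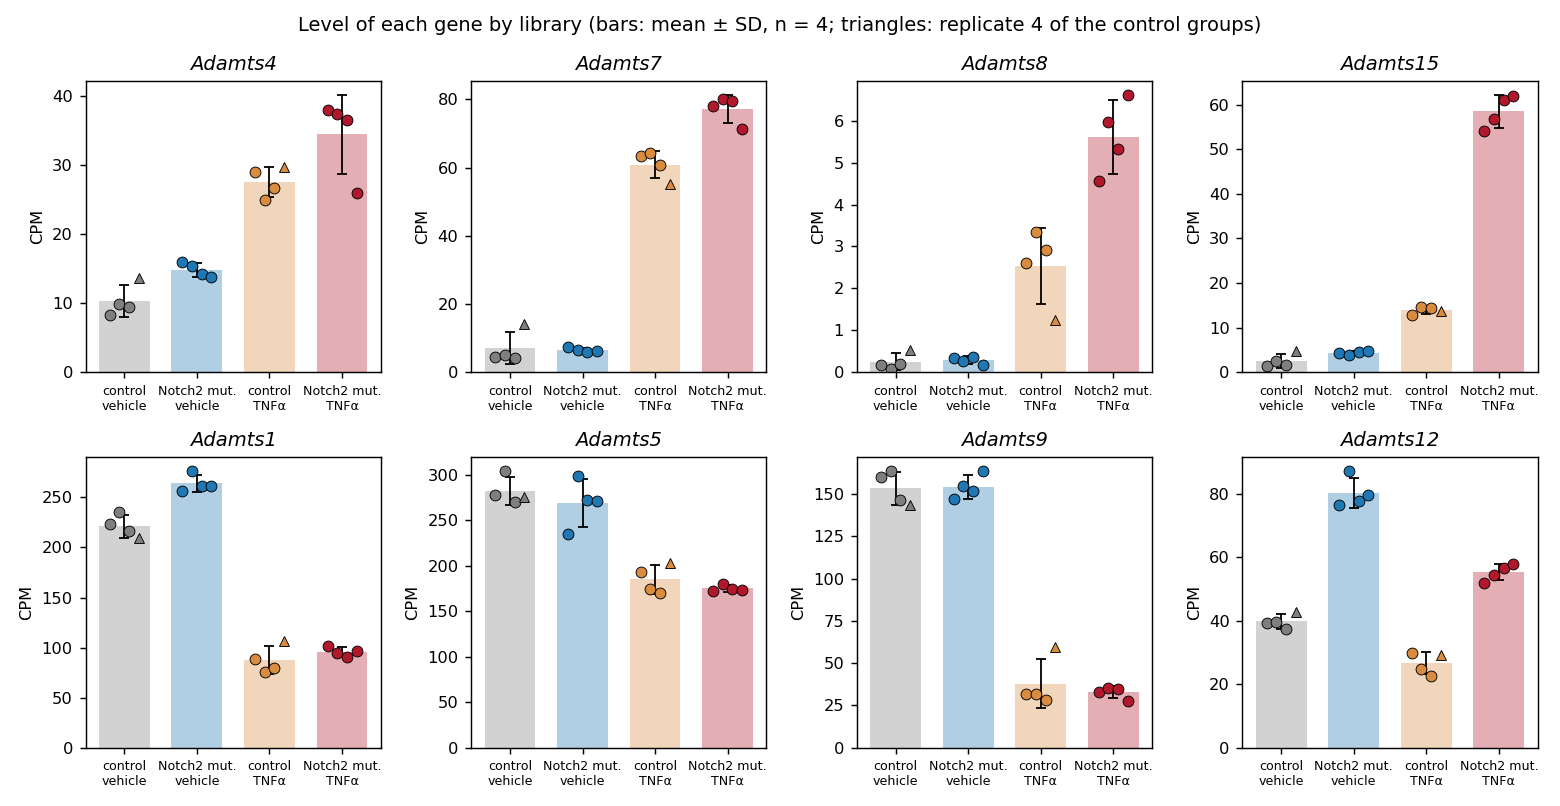
Level of each of the 8 genes in CPM by group, with bars from 0 for the mean of 4 libraries, lines for the SD, points for libraries and triangles for replicate 4 of the control groups, and with a vertical scale of its own in each panel. *Adamts15* lies between 54.1 and 62.1 CPM in *Notch2* mutant cells with TNFα and between 12.8 and 14.6 CPM in control cells with TNFα, and the genotypes overlap for *Adamts5* under both treatments.

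Of the classical aggrecanases, *Adamts4*, which codes for an inducible aggrecanase, was at 8.29, 9.90, 9.39 and 13.6 CPM in control vehicle libraries 1 to 4 and at 28.9, 25.0, 26.6 and 29.7 CPM in control TNFα libraries. In *Notch2* mutant cells it was at 15.98, 15.3, 14.2 and 13.7 CPM with vehicle, and at 38.0, 37.3, 36.5 and 25.9 CPM with TNFα. Every TNFα library was above every vehicle library of its genotype, and the 25.9 CPM of *Notch2* mutant TNFα replicate 4, the library with the fewest counts, lay within the range of control TNFα. *Adamts4* rose with TNFα 2.68-fold in control cells (log2 fold change 1.42, SE 0.13, adjusted p = 3.21e-07, and 1.55 without both replicate 4 libraries) and 2.42-fold in *Notch2* mutant cells (1.28, SE 0.096, adjusted p = 1.01e-11). It was also higher in *Notch2* mutant cells than in control cells, by 0.52 on the log2 scale with vehicle (SE 0.13, adjusted p = 0.00794, and 0.68 without control replicate 4) and by 0.38 with TNFα (SE 0.088, adjusted p = 0.00414).

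*Adamts5* fell with TNFα and showed no detected difference between genotypes. It was at 278, 305, 270 and 276 CPM in control vehicle libraries and at 193, 174, 170 and 203 CPM with TNFα, and in *Notch2* mutant cells at 235, 299, 273 and 271 CPM with vehicle and 172, 180, 174 and 174 CPM with TNFα. The treatments did not overlap, and the genotypes did overlap under both treatments. *Adamts5* fell with TNFα to 0.660 of the vehicle level in control cells (log2 fold change -0.60, adjusted p = 2.51e-08) and to 0.651 in *Notch2* mutant cells (-0.62, adjusted p = 1.03e-08). The difference between genotypes was -0.059 with vehicle (SE 0.061, adjusted p = 0.652) and -0.067 with TNFα (SE 0.064, adjusted p = 0.609) and did not pass under either treatment. The transcripts of both aggrecanases thus moved in opposite directions with TNFα.

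The other members that cut aggrecan or versican are *Adamts1*, *Adamts8*, *Adamts9* and *Adamts15*. *Adamts15*, which codes for a versican- and aggrecan-cutting enzyme, was at 1.38, 2.44, 1.67 and 4.82 CPM in control vehicle libraries and at 12.8, 14.6, 14.5 and 13.8 CPM in control TNFα libraries. In *Notch2* mutant cells it was at 4.34, 3.80, 4.41 and 4.76 CPM with vehicle and at 54.1, 56.9, 61.1 and 62.1 CPM with TNFα. Thus every *Notch2* mutant TNFα library was above every other library, and with vehicle the genotypes were separate except for control replicate 4. With TNFα the mean of *Notch2* mutant libraries was 58.6 ± 3.69 CPM (SD, n = 4) and that of control libraries 13.9 ± 0.800 CPM (SD, n = 4), a 4.20-fold difference (log2 fold change 2.07, SE 0.079, adjusted p = 3.66e-16). With vehicle the difference between genotypes was 0.76 (SE 0.33, adjusted p = 0.221) and did not pass. Without control vehicle replicate 4 it was 1.28 and passed (adjusted p = 1.07e-04), and it also passed with all libraries and no filter on low counts (0.75, adjusted p = 0.00187) or with a replicate block (0.83, adjusted p = 0.0476). These were 3 of 9 alternatives, and under the rest, DESeq2 among them, the vehicle difference did not pass. With 1 library left out it passed in 1 of 8 fits, that without control vehicle replicate 4. *Adamts15* rose with TNFα 5.41-fold in control cells (log2 fold change 2.44, adjusted p = 4.22e-04, and 2.98 without both replicate 4 libraries) and 13.3-fold in *Notch2* mutant cells (3.73, adjusted p = 3.16e-22).

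*Adamts8*, the divergent neighbor of *Adamts15*, had the lowest level per length of exon of the 8 in every group. It had 3, 1, 3 and 9 counts in control vehicle libraries and 5, 5, 7 and 7 in *Notch2* mutant vehicle libraries, and the limit of detection was taken as 3 counts. With TNFα it was at 2.60, 3.35, 2.91 and 1.25 CPM in control cells and at 4.57, 5.96, 5.32 and 6.62 CPM in *Notch2* mutant cells, where replicate 4 rests on 24 counts in the shallowest library. All *Notch2* mutant TNFα libraries were above all control TNFα libraries, and the lowest control value was that of replicate 4. *Adamts8* rose with TNFα in control cells (log2 fold change 3.30, SE 0.44, adjusted p = 3.54e-06, and 4.25 without both replicate 4 libraries) and in *Notch2* mutant cells (4.40, SE 0.28, adjusted p = 3.07e-13). With TNFα it was 2.18-fold higher in *Notch2* mutant cells (1.13, SE 0.23, adjusted p = 0.00107, and 0.86 without control replicate 4). With vehicle no difference between genotypes was detectable at this depth (0.10, SE 0.63, adjusted p = 0.956).

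*Adamts1*, which codes for a protease of aggrecan and versican also known as METH-1, was at 224, 236, 216 and 209 CPM in control vehicle libraries and at 88.4, 75.2, 79.7 and 106 CPM with TNFα. With the *Notch2* mutation it was at 257, 277, 261 and 261 CPM with vehicle and at 101, 94.7, 90.4 and 96.5 CPM with TNFα. All *Notch2* mutant vehicle libraries were above all control vehicle libraries, and with TNFα the genotypes overlapped. *Adamts1* fell with TNFα by 1.33 on the log2 scale in control cells (SE 0.099, adjusted p = 2.19e-06, and by 1.47 without both replicate 4 libraries) and by 1.46 in *Notch2* mutant cells (SE 0.061, adjusted p = 2.86e-17). It was 1.20-fold higher in *Notch2* mutant cells with vehicle (log2 fold change 0.26, SE 0.050, adjusted p = 7.52e-04). With TNFα the difference was 0.14 and did not pass (adjusted p = 0.416). When control TNFα replicate 4 was left out, it passed at 0.24 (adjusted p = 0.0204).

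*Adamts9*, which codes for a widely expressed versicanase and aggrecanase, was at 160, 163, 146 and 143 CPM in control vehicle libraries and at 31.8, 31.9, 28.3 and 59.5 CPM with TNFα. In the *Notch2* mutant libraries it was at 147, 155, 152 and 164 CPM with vehicle and at 33.1, 35.5, 34.9 and 27.9 CPM with TNFα. Control TNFα replicate 4 was the one TNFα library above 36 CPM. *Adamts9* fell with TNFα by 2.00 on the log2 scale in control cells (SE 0.25, adjusted p = 8.17e-04, and by 2.35 without both replicate 4 libraries) and by 2.2 in *Notch2* mutant cells (SE 0.072, adjusted p = 1.30e-19), the steepest falls of the 8 genes. The genotypes overlapped under both treatments, with differences of 0.018 with vehicle (adjusted p = 0.903) and -0.18 with TNFα (adjusted p = 0.783, and 0.13 without control replicate 4).

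*Adamts7* and *Adamts12* code for the mucin-like members of the family, which cut cartilage oligomeric matrix protein (COMP). *Adamts7* was at 4.53, 5.02, 4.25 and 14.0 CPM in control vehicle libraries and at 63.4, 64.1, 60.7 and 55.2 CPM with TNFα. In *Notch2* mutant cells it was at 7.23, 6.36, 5.96 and 6.28 CPM with vehicle and at 78.0, 80.1, 79.5 and 71.2 CPM with TNFα. The control vehicle library at 14.0 CPM is the one that stood apart, and the other control vehicle libraries lay below all *Notch2* mutant vehicle libraries. *Adamts7* rose with TNFα 8.66-fold in control cells (log2 fold change 3.11, SE 0.38, adjusted p = 6.55e-04, and 3.78 without both replicate 4 libraries) and 12.1-fold in *Notch2* mutant cells (3.60, SE 0.083, adjusted p = 5.56e-23). With TNFα it was 1.29-fold higher in *Notch2* mutant cells (0.36, SE 0.065, adjusted p = 2.25e-04), a call that was lost when all 16 libraries shared 1 fit (adjusted p = 0.397). With vehicle the difference was -0.12 (SE 0.43, adjusted p = 0.926). Without control vehicle replicate 4 the vehicle difference turned to 0.48 and passed (adjusted p = 0.0264).

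*Adamts12* differed between genotypes under both treatments. It was at 39.1, 39.7, 37.4 and 42.8 CPM in control vehicle libraries and at 76.5, 87.2, 77.5 and 79.4 CPM in *Notch2* mutant vehicle libraries. With TNFα it was at 29.8, 24.7, 22.6 and 29.2 CPM in control cells and at 52.0, 54.5, 56.7 and 57.9 CPM in *Notch2* mutant cells. Each *Notch2* mutant library was above every control library of either treatment. *Adamts12* was 2.03-fold higher in *Notch2* mutant cells with vehicle (log2 fold change 1.02, SE 0.062, adjusted p = 6.01e-11) and 2.09-fold higher with TNFα (1.06, SE 0.084, adjusted p = 4.36e-10). It fell with TNFα by 0.58 on the log2 scale in control cells (adjusted p = 9.11e-06) and by 0.54 in *Notch2* mutant cells (adjusted p = 1.56e-07).

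Between genotypes with vehicle, 3 of the 8 members were called, all higher in *Notch2* mutant cells (*Adamts1*, *Adamts4* and *Adamts12*), against 10.5% of all genes called, 6.19% called higher and 4.35% called lower. The groups did not overlap for these 3, as for 16.2% of all genes. Without control vehicle replicate 4 there were 5, with *Adamts7* and *Adamts15* added, against 10.4% of all genes called and 5.78% called higher. With TNFα, 5 of the 8 were called, all higher in *Notch2* mutant cells (*Adamts4*, *Adamts7*, *Adamts8*, *Adamts12* and *Adamts15*), against 9.94% of all genes called, 5.63% called higher and 4.31% called lower. The groups did not overlap for 4 of the 5, *Adamts4* being the exception, as for 14.8% of all genes. With all 16 libraries in 1 fit there were 4, without *Adamts7*. With *Notch2* mutant TNFα replicate 4 left out, the same 5 members were called, and the difference of *Adamts4* was 0.44. Without control TNFα replicate 4 there were 6, with *Adamts1* added, against 11% of all genes called and 5.86% called higher. At a log2 fold change of 1 or more as well, 1 member was called with vehicle (*Adamts12*), against 1.26% of all genes, and 3 with TNFα (*Adamts8*, *Adamts12* and *Adamts15*), against 1.41%. No member was called lower in *Notch2* mutant cells in either comparison. The median log2 fold change of the 8 members was 0.18 with vehicle and 0.37 with TNFα, against -0.002 and -0.012 over all genes tested. The genotype and TNFα comparisons share libraries, and their values stand side by side without a test between them.

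**Figure D2:**
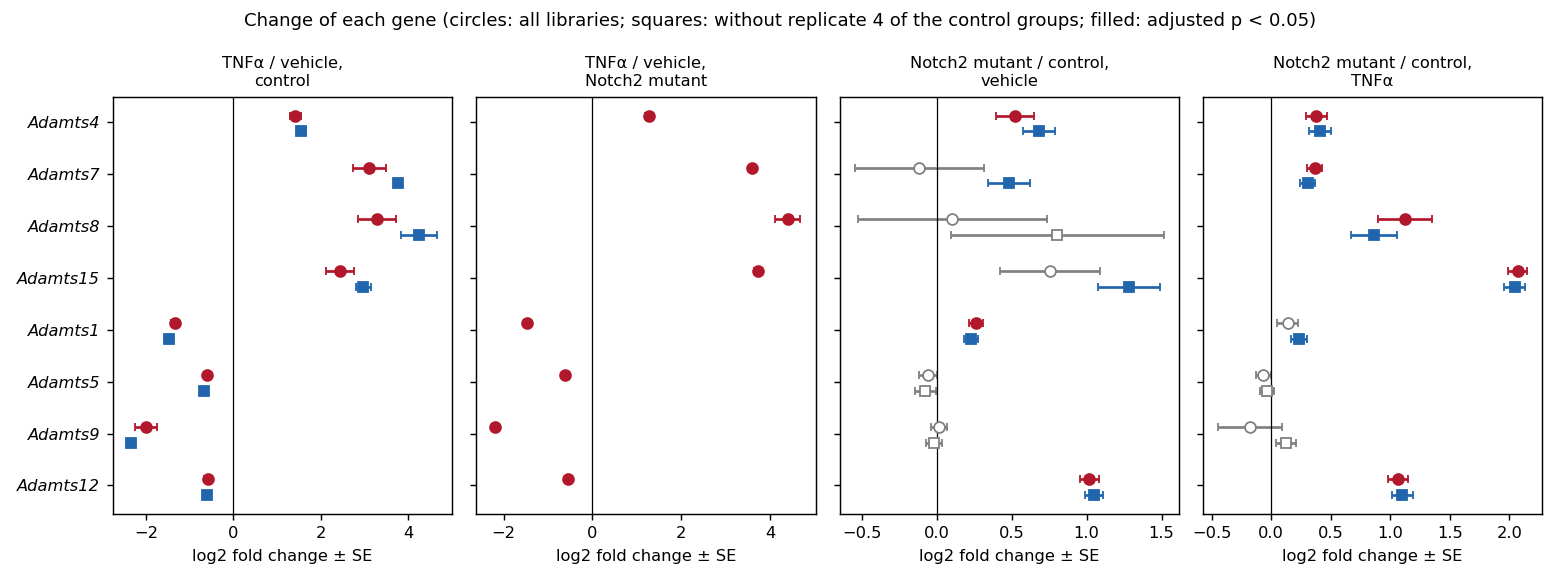
Log2 fold change of each gene with its standard error in the 4 comparisons, with all libraries (circles) and without both control replicate 4 libraries (squares), filled where the adjusted p was under 0.05, and with a horizontal scale of its own in each panel. All 8 genes lie away from 0 with TNFα, and *Adamts7* with vehicle moves from -0.12 to 0.48 when control replicate 4 is left out.

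Whether the response to TNFα differed between genotypes was tested with the interaction of genotype and TNFα over the 16 libraries. None of the 8 members was called by edgeR, against 0.474% of all genes, and 1 was at an unadjusted p under 0.05. This was *Adamts15*, with an interaction of 1.30 on the log2 scale (SE 0.31, adjusted p = 0.11) and of 0.76 without both replicate 4 control libraries (adjusted p = 0.104). Without these libraries, too, none of the 8 was called, against 0.63% of all genes. DESeq2 called *Adamts15* alone (1.34, adjusted p = 0.0168). The interaction was 1.11 for *Adamts8* (SE 0.62, adjusted p = 0.657) and 0.49 for *Adamts7* (SE 0.38, adjusted p = 0.784), and for the other 5 members it lay between -0.20 and 0.042. Without both replicate 4 control libraries the interaction of *Adamts8* was 0.15 and that of *Adamts7* was -0.17.

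To compare levels between genes, CPM were divided by the length of the exons of each gene in kb. This length joins all annotated exons of a gene and may exceed that of the transcripts expressed, so that order and shares depend on the annotation. In control vehicle cells the order from high to low was *Adamts1* (40.4 CPM per kb), *Adamts5* (25.8), *Adamts9* (10.2), *Adamts12* (3.64), *Adamts4* (1.60), *Adamts7* (1.10), *Adamts15* (0.246) and *Adamts8* (0.0514), where the libraries of *Adamts4* and *Adamts7* overlapped. In *Notch2* mutant vehicle cells the order was the same, with *Adamts12* at 7.34 CPM per kb, and no neighbors overlapped. In control TNFα cells it was *Adamts5* (16.9 CPM per kb), *Adamts1* (15.98), *Adamts7* (9.60), *Adamts4* (4.27), *Adamts9* (2.51), *Adamts12* (2.43), *Adamts15* (1.33) and *Adamts8* (0.536), where *Adamts5* overlapped with *Adamts1*, and *Adamts9* with both *Adamts4* and *Adamts12*. In *Notch2* mutant TNFα cells it was *Adamts1* (17.5 CPM per kb), *Adamts5* (16.03), *Adamts7* (12.2), *Adamts15* (5.59), *Adamts4* (5.34), *Adamts12* (5.06), *Adamts9* (2.18) and *Adamts8* (1.19), where the libraries of *Adamts15*, *Adamts4* and *Adamts12* all overlapped. *Adamts7* thus moved from the sixth to the third place with TNFα in both genotypes. *Adamts15* was seventh in *Notch2* mutant cells with vehicle, and with TNFα it was among the fourth to sixth places, where the ranges overlapped. Within each *Notch2* mutant TNFα library, *Adamts15* was above *Adamts12*. Within each control TNFα library, *Adamts4* was above *Adamts9*, and the overlap of their ranges came from *Adamts9* in replicate 4 (3.94 CPM per kb).

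**Figure D3:**
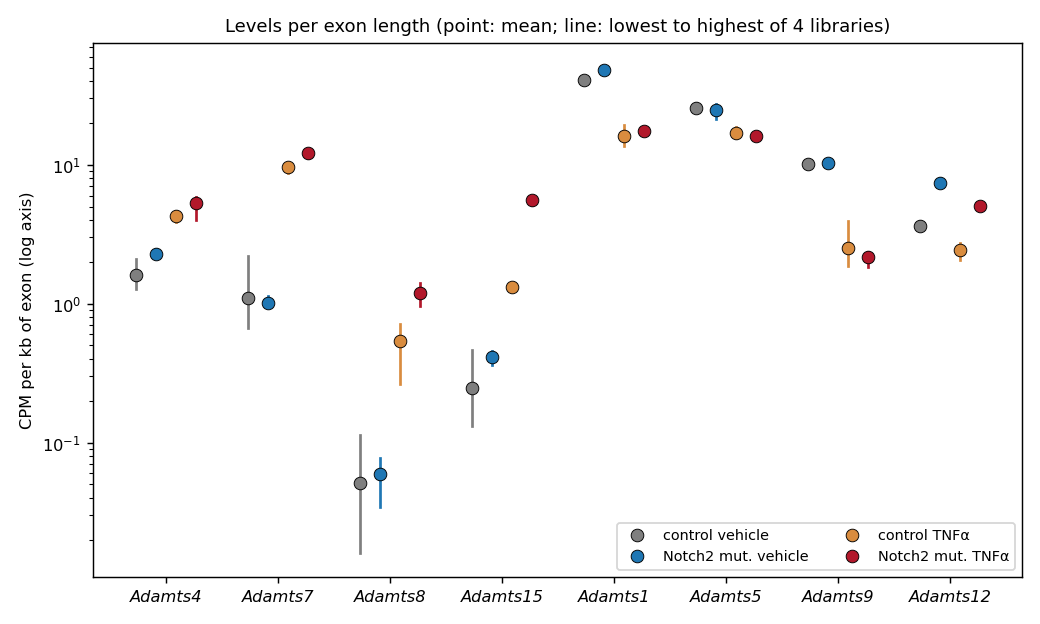
Level of the 8 genes per kb of exon in each group on a log axis, with a point for the mean and a line from the lowest to the highest of 4 libraries. The range of the gene means narrows from 40.4 to 0.0514 CPM per kb in control vehicle cells to 17.5 to 1.19 CPM per kb in *Notch2* mutant TNFα cells.

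The summed level of the 8 genes was 83.0 ± 3.53 CPM per kb (SD, n = 4) in control vehicle cells, 94.2 ± 4.39 in *Notch2* mutant vehicle cells, 53.6 ± 4.61 in control TNFα cells and 65.0 ± 1.28 in *Notch2* mutant TNFα cells. *Adamts1* made up 48.7% of the sum in control cells with vehicle and 29.7% with TNFα, and in *Notch2* mutant cells 51.2% and 26.9%. *Adamts7* made up 1.33% of the sum in control cells with vehicle and 18.1% with TNFα, and in *Notch2* mutant cells 1.08% and 18.7%. *Adamts15* made up 0.297% of the sum in control cells with vehicle and 2.50% with TNFα, and in *Notch2* mutant cells 0.440% and 8.60%.

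Across the 16 libraries, which share their treatment and genotype in groups of 4, log2 CPM of *Adamts7* and *Adamts8* had a Pearson r of 0.97, and that of the divergent neighbors *Adamts8* and *Adamts15* an r of 0.95. The neighbors *Adamts1* and *Adamts5* had an r of 0.95. Such values were not particular to neighbors, since *Adamts9*, on another chromosome, had an r of 0.98 to *Adamts1* and of 0.97 to *Adamts5*. *Adamts12* stood apart, with r between -0.40 and 0.59 to the other members. Among genes with a mean of at least 1 CPM, the patterns most like *Adamts15* over the 16 libraries were those of *Iqgap3* (r = 0.986), *Aldh1a2* (0.983) and *Pxdn* (0.982). Those most like *Adamts12* were *Apbb1ip* (r = 0.988), *Jak1* (0.983) and *Man1c1* (0.978), and those most like *Adamts7* were *Lbp* (r = 0.998), *Scara5* (0.997) and *Synm* (0.996). For *Adamts4* they were *Atp2b4*, *Olfml2a* and *Cilp* (r from 0.977 to 0.983), for *Adamts8* *Micall2*, *Dram1* and *Ifitm3* (0.984 to 0.985), for *Adamts5* *Gfpt1*, *Pja2* and *Skic3* (0.986 to 0.990), for *Adamts1* *Zfp9*, *Manf* and *Ahcyl1* (0.993 to 0.994) and for *Adamts9* *Palmd*, *Cyp26b1* and *Hdlbp* (0.995 each).

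Of the other 11 ADAMTS genes, 10 were tested with TNFα, and *Adamts13* did not pass the filter. With TNFα, 4 rose and 1 fell in control cells, and 5 rose and 1 fell in *Notch2* mutant cells. *Adamts19*, at 0 or 1 count in *Notch2* mutant vehicle libraries and at 1 to 7 counts with TNFα, was among the 5. *Adamts16* rose by 1.80 and 2.67 on the log2 scale in control and *Notch2* mutant cells, at no more than 76 counts in a library. The procollagen protease gene *Adamts14* rose by 0.87 and 1.31, and its relative *Adamts3* fell by 2.33 and 2.66. Between genotypes, 1 of 9 rose with vehicle (*Adamts2*, 0.28) and 3 of 10 rose with TNFα (*Adamts16*, 1.62, *Adamts14*, 0.50, and *Adamts2*, 0.38), and none fell (2 rose with vehicle without control replicate 4). In the interaction *Adamts14* was the one call of 10 (0.44, adjusted p = 0.0236), and without both control libraries *Adamts6* was called as well (-0.78, adjusted p = 0.0485). Of 7 ADAMTS-like genes, whose products lack the protease domain, 2 rose and 3 fell with TNFα in control cells, and 2 rose and 2 fell in *Notch2* mutant cells. *Thsd4* rose by 2.30 and 2.57 on the log2 scale, and *Adamtsl3* fell by 1.77 and 1.78. Between genotypes, 2 of the 7 rose and none fell with vehicle (1 and 1 without control replicate 4), and 1 rose and 2 fell with TNFα (3 and 2 without control replicate 4). None of the 7 was called in the interaction, and 1 was (*Adamtsl4*) without both control libraries.

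*Timp3*, which codes for the main tissue inhibitor of aggrecanases, fell with TNFα and was lower in *Notch2* mutant cells. It was at 9817, 9453, 9571 and 8468 CPM in control vehicle libraries and at 2428, 2296, 2312 and 3700 CPM in control TNFα libraries. In *Notch2* mutant cells it was at 5901, 6301, 6397 and 6344 CPM with vehicle and at 1622, 1703, 1614 and 1476 CPM with TNFα. No groups of a comparison overlapped, and control TNFα replicate 4 was the highest of the TNFα libraries. *Timp3* fell with TNFα by 1.79 on the log2 scale in control cells (adjusted p = 2.34e-04) and by 1.96 in *Notch2* mutant cells (adjusted p = 2.02e-20), and in *Notch2* mutant cells it was lower by 0.57 with vehicle (adjusted p = 2.85e-08) and by 0.73 with TNFα (adjusted p = 0.0329). Of the 6 genes for inhibitors and clearance, 2 rose and 3 fell with TNFα in control cells and 3 rose and 2 fell in *Notch2* mutant cells. *A2m*, coding for the protease inhibitor α2-macroglobulin, rose by 1.21 and 1.17, and was lower in *Notch2* mutant cells by 0.72 with vehicle and by 0.76 with TNFα. *Lrp1*, coding for the receptor that takes up ADAMTS4 and ADAMTS5, had a log2 fold change of -0.011 with TNFα in control cells (adjusted p = 0.981) and rose by 0.44 in *Notch2* mutant cells (adjusted p = 0.0130). Its log2 fold change between genotypes was 0.028 with vehicle and 0.49 with TNFα, and neither passed. *Lrp1* libraries spread from 1241 to 2632 CPM in control cells with TNFα. In *Notch2* mutant cells the vehicle (1554 to 2253 CPM) and TNFα libraries (2175 to 2795 CPM) overlapped. None of the 6 genes was called in the interaction of genotype and TNFα. Between genotypes, 1 of the 6 rose and 3 fell with vehicle (0 and 4 without control replicate 4), and none rose and 2 fell with TNFα.

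Of 6 genes for activation and docking, 1 rose and 3 fell with TNFα in control cells and 4 fell in *Notch2* mutant cells. *Furin*, coding for the convertase that activates ADAMTS proenzymes, fell by 0.17 on the log2 scale in control cells (adjusted p = 0.00681) and by 0.16 in *Notch2* mutant cells (adjusted p = 0.0360), and did not pass between genotypes (0.076 and 0.094). *Mmp17*, coding for a membrane protease known to activate ADAMTS4, was higher in *Notch2* mutant cells by 1.68 with vehicle and 1.03 with TNFα. Under each treatment, 1 of the 6 rose and 1 fell between genotypes.

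Of 9 substrate genes, 2 rose and 3 fell with TNFα in control cells (2 and 4 without both control libraries), and 4 rose and 3 fell in *Notch2* mutant cells. Under each treatment, 1 was higher and 4 were lower in *Notch2* mutant cells. *Acan*, which codes for aggrecan, fell with TNFα by 1.33 on the log2 scale in control cells (adjusted p = 9.43e-04) and by 1.49 in *Notch2* mutant cells (adjusted p = 7.57e-18), and was lower in *Notch2* mutant cells by 0.68 with vehicle (adjusted p = 2.12e-09) and by 0.82 with TNFα (adjusted p = 0.0195). *Comp* had log2 fold changes of -0.025 and -0.068 with TNFα, neither of which passed, and was lower in *Notch2* mutant cells by 0.46 with vehicle (adjusted p = 1.61e-06) and by 0.49 with TNFα (adjusted p = 1.11e-06). *Vcan*, which codes for versican, had a log2 fold change of 0.26 with TNFα in control cells (adjusted p = 0.419) and rose by 0.52 in *Notch2* mutant cells (adjusted p = 0.0428). Its log2 fold change between genotypes was 0.42 with vehicle and 0.70 with TNFα, and neither passed. None of the 9 substrate genes was called in the interaction of genotype and TNFα.

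**Figure D4:**
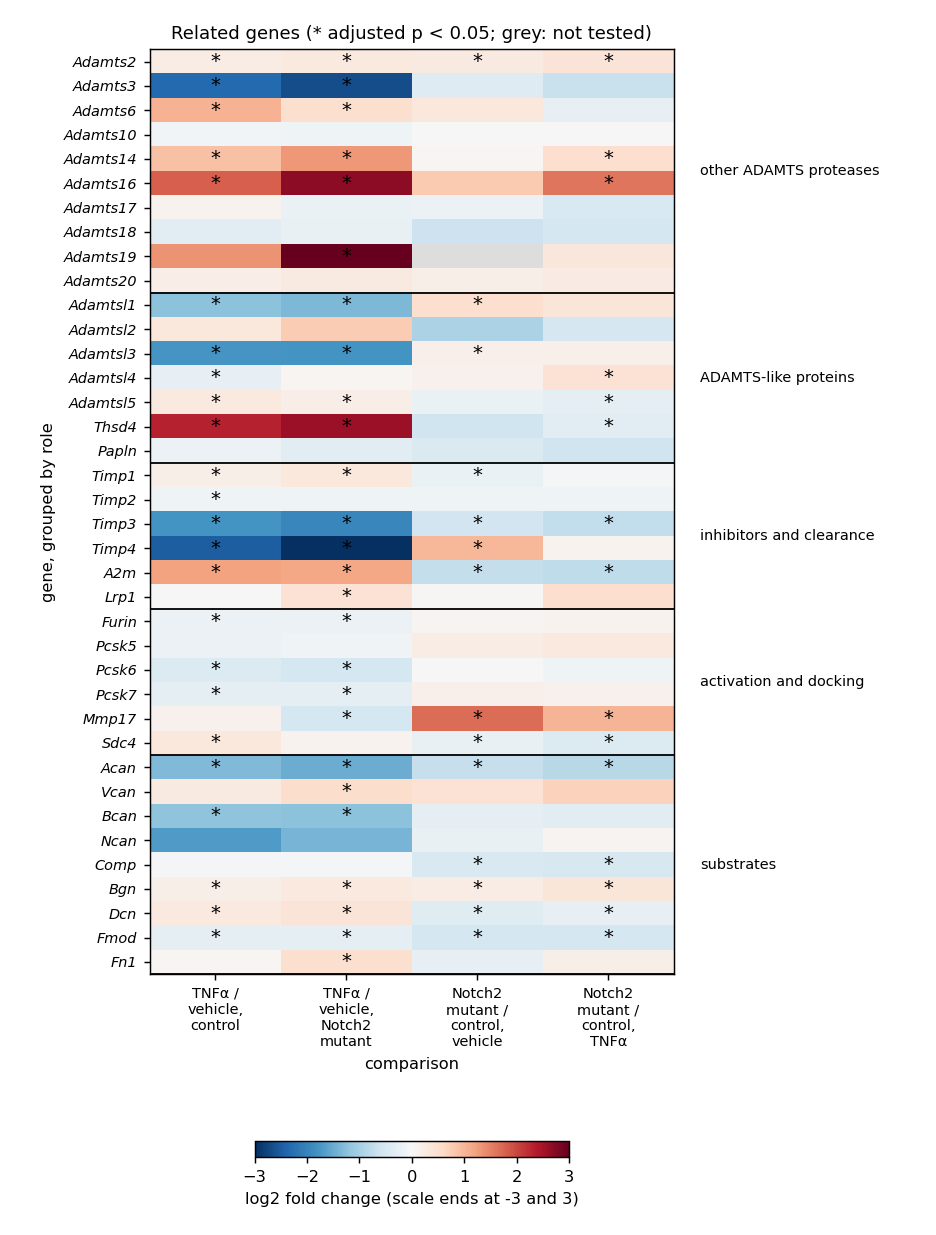
Log2 fold changes of the other ADAMTS genes, ADAMTS-like genes, inhibitors, activators and substrates (lines) in the 4 comparisons (columns), with a star for an adjusted p under 0.05 and grey for genes not tested. *Timp3* and *Acan* are blue in all 4 columns, and *Adamts3* is blue with a star in both TNFα columns.

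The levels of cell type markers also differed between genotypes. All 12 chondrocyte markers were lower in *Notch2* mutant cells under both treatments (11 with vehicle when control replicate 4 was left out), with a summed level of 47196 to 50816 CPM in control and 29109 to 33739 CPM in *Notch2* mutant vehicle libraries, and of 32935 to 39666 CPM and 17063 to 19831 CPM with TNFα. Of 10 fibroblast and perichondrium markers, 6 were higher and 1 was lower in *Notch2* mutant cells with vehicle (31735 to 34716 CPM in control and 36408 to 39110 CPM in *Notch2* mutant cells), and 7 were higher with TNFα (30790 to 33908 CPM and 34719 to 42682 CPM). Of 14 macrophage markers, 10 were higher with vehicle (75.0 to 81.3 CPM and 141 to 164 CPM) and 12 with TNFα (89.2 to 104 CPM and 187 to 212 CPM). Of 5 smooth muscle markers, 4 were higher with vehicle (1767 to 2045 CPM and 3514 to 4119 CPM) and 3 with TNFα (989 to 1198 CPM and 1865 to 2159 CPM). Of 6 endothelial markers, 4 were higher with vehicle (6.85 to 9.11 CPM and 15.98 to 20.6 CPM) and 3 with TNFα (9.15 to 12.1 CPM and 17.7 to 24.0 CPM). Of 8 skeletal muscle markers, 5 were higher with vehicle (22.1 to 27.6 CPM and 37.6 to 46.6 CPM) and 2 with TNFα (8.45 to 18.6 CPM and 19.4 to 40.8 CPM). Of 6 hypertrophic chondrocyte markers, 2 were higher and 2 lower with vehicle (1244 to 1369 CPM and 903 to 1000.1 CPM), and 1 of 5 tested was higher and 1 lower with TNFα (1588 to 1954 CPM and 1230 to 1472 CPM). With control replicate 4 left out, the counts higher in *Notch2* mutant cells were 0 for hypertrophic chondrocyte, 11 for macrophage and 6 for skeletal muscle markers with vehicle. With TNFα they were 6 for fibroblast and perichondrium, 2 for hypertrophic chondrocyte, 4 for smooth muscle, 2 for endothelial and 3 for skeletal muscle markers, and, apart from the chondrocyte markers with vehicle, the other marker counts between genotypes did not change. No marker was at 0 in all libraries of a group. With TNFα, 10 of the 12 chondrocyte markers were lower in each genotype. The part of these shifts in the levels of the ADAMTS genes was not tested.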

How the data were processed

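RNA-Seq libraries of chondrocyte-enriched cells, 4 per group, were described by 1 file of counts each. The deposited files hold whole-number counts per Ensembl gene that the authors made from paired-end reads of a stranded kit. The submitters' processing notes name HISAT2 2.1.0, SAMtools 1.9, Picard, HTSeq, DESeq2 and the build GRCm38, whereas the methods of the study name GRCm39. The strand setting of the counting is not given in the sources used here. Reads of overlapping genes, and reads that map to more than 1 place, may have been lost in counting. In each library, 5 entries that name no gene held 8.81 to 12.1% of the counts and were left out. Names, GRCm39 positions and exon lengths were taken from GENCODE M39, in which 665 identifiers with 0.0182% of the counts were not found.

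TMM normalization was used, and a gene had to reach a sum of 10 counts in the libraries of a comparison. edgeR 4.0.16 (quasi-likelihood, robust) with limma 3.58.1 in R 4.3.3 was fitted to the 8 libraries of each comparison between 2 groups and to all 16 libraries for the interaction. P values were adjusted by Benjamini-Hochberg over all genes tested, and genes were called at an adjusted p under 0.05. CPM used TMM-scaled library sizes, SE is the log2 fold change divided by the square root of the F statistic, and log2 CPM for correlations had a prior count of 2. The limit of detection was 3 counts, which covers counting error only. Python 3.11.15 with matplotlib 3.10.9, numpy 2.4.6 and pandas 2.3.3 served for tables and figures, and the pipeline was tested on simulated data.

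The members and the lists were chosen with earlier results of these data known. Named were the 8 members, *Timp3*, *Lrp1*, *Furin*, *Acan*, *Vcan* and *Comp*, up to 3 genes of each other list with the largest change among called genes whose groups do not overlap, and the 3 genes most like each member. *Icam1* and *Adamts19* were added after their values were seen. The alternatives were DESeq2 1.42.0, RLE normalization, no filter, an adjusted p under 0.1, a log2 fold change of at least 1, 1 fit shared by all 16 libraries, a replicate block, each library left out in turn, and both replicate 4 control libraries left out.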

Additional observations from a re-analysis of the deposited data

Results flagged for a closer look

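In 3 of 32 sets of 4 libraries (8 genes in 4 groups), the replicate 4 library lay farther from the others than Dixon's 95% limit allows, and chance flags about 1 in 20 sets. *Adamts7* was at 14.0 CPM in control vehicle replicate 4, against 4.25 to 5.02 CPM in the other libraries of that group. *Adamts9* was at 59.5 CPM in control TNFα replicate 4, against 28.3 to 31.9 CPM. *Adamts4* was at 25.9 CPM in *Notch2* mutant TNFα replicate 4, the library with the fewest counts, against 36.5 to 38.0 CPM.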

How the results depend on the processing

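With TNFα, all 8 members were called in both genotypes under every alternative except a log2 fold change of at least 1, which left 6. Between genotypes, that fold limit left 1 of 3 members with vehicle and 3 of 5 with TNFα. With vehicle the count was 5 without both replicate 4 control libraries, and 3 to 5 with 1 library left out, the 5 being without control vehicle replicate 4. With TNFα it was 5 to 6 with 1 library left out. In the interaction DESeq2 called 1 member and the fit with no filter called 1, *Adamts15* in each case, and with 1 library left out the count was 0 to 1. *Adamts15* was called there without control vehicle replicate 1 (1.52, adjusted p = 0.00698) and without replicate 3 (1.45, adjusted p = 0.0475), and its interaction ranged from 0.75 to 1.52. Directions reversed only for differences that were not called in the full data. With vehicle between genotypes, *Adamts7* turned to 0.013 with the replicate block and to 0.48 without both replicate 4 controls, and ranged from -0.29 to 0.48 with 1 library left out. *Adamts9* turned to -0.021 without both controls (-0.022 to 0.049), and *Adamts8* ranged from -0.16 to 0.80. With TNFα, *Adamts9* turned to 0.13 without both controls (-0.31 to 0.13). In the interaction without both controls, *Adamts1* turned to 0.010, *Adamts5* to 0.045, *Adamts7* to -0.17 and *Adamts9* to 0.15, and *Adamts5* turned to 0.00085 with RLE normalization. With 1 library left out, the interaction ranged from -0.073 to 0.034 for *Adamts5*, from -0.14 to 0.66 for *Adamts7*, from -0.32 to 0.12 for *Adamts9* and from -0.029 to 0.096 for *Adamts12*. *Adamts7* with TNFα between genotypes had an adjusted p of 0.397 when all 16 libraries shared 1 fit. The cause of these changes was not tested. Deviations of same-numbered libraries from their group means had r from -0.178 (control vehicle and control TNFα replicate 4) to 0.12. Such values cannot tell whether same-numbered libraries share an animal or culture. With the replicate block the counts were 8, 8, 4 and 5 in the 4 comparisons and 0 in the interaction. *Adamts15* with vehicle between genotypes was the added call (0.83, adjusted p = 0.0476). Depth limits *Adamts8*, which had 1 to 9 counts in vehicle libraries.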
